A study of Mus musculus with 4 samples.

Results

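Tropomyosins, tropomodulins and leiomodins set the length and stability of actin thin filaments, and 9 of their genes were followed here among 56691 genes of the deposited table. The members were taken by gene symbol, and each symbol matched 1 row. They are the 4 tropomyosin genes Tpm1, Tpm2, Tpm3 and Tpm4, the 2 tropomodulin genes Tmod1 and Tmod3, and the 3 leiomodin genes Lmod1, Lmod2 and Lmod3. RNA came from primary cardiac fibroblasts of wild-type mouse hearts taken between postnatal days 1 and 3. All cells carried Mef2c, Gata4 and Tbx5 (MGT), the factors that turn fibroblasts towards induced cardiomyocyte-like cells, and all were collected on day 7. A short hairpin that targets no gene was added in MGT+shNT, the control, and one against Scd1, the gene of stearoyl-CoA desaturase, in MGT+shScd1, the knockdown; each group has 2 libraries. Every cell compared thus carries MGT and a hairpin, and the labels do not say how many different Scd1 hairpins were used.

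A tropomyosin is a coiled-coil dimer that lies end to end along the actin filament, and in striated muscle it carries troponin and gates the access of myosin. Each tropomyosin gene makes several isoforms by alternative promoters and splicing, some for muscle and some for the cytoskeleton of other cells. Tropomodulins cap the pointed end of the thin filament, and leiomodins, their relatives, nucleate actin and lengthen the filament at that same end. In the heart, Tpm1, Tmod1 and Lmod2 are the main muscle members, while Tpm4 and Tmod3 serve mostly non-muscle actin, Lmod1 is known from smooth muscle and Lmod3 from skeletal muscle.

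All 9 members passed the filter on low counts. With Scd1 knocked down, Tpm1, Tpm2, Lmod2 and Lmod3 rose, Tmod3 fell, and Tpm3, Tpm4, Tmod1 and Lmod1 did not pass the test. The 5 called members are 55.6% of the 9, against 29.3% of all 16234 genes tested. By direction, 4 members were called higher where 13.1% of all genes were, and 1 was called lower where 16.3% were. These shares over all genes are also the background for each list of genes counted below. The median log2 fold change of the 9 was 0.10, and that of all tested genes was 0.0001. Calls required an adjusted p below 0.05 in the two-sided quasi-likelihood test of edgeR, adjusted by Benjamini-Hochberg over the whole table, which is the source of each adjusted p here unless another test is named. Log2 fold changes have the knockdown as numerator, so that positive values are higher after knockdown. Over all genes, 2122 were called higher and 2641 lower, a split that became 2696 and 2170 with upper-quartile factors and 1242 and 810 with limma on log2(FPKM + 1). Scaled to the library, the counts of the groups did not overlap for 8 of the 9 members, Lmod1 being the exception, but the same held for 64.3% of all genes tested.

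Total counts ranged from 15135227 to 20894972 per library. The targeted gene, Scd1, had 84.4 and 63.5 CPM (counts scaled to the library total, corrected for composition by TMM) in the controls and 6.64 and 8.04 CPM in the knockdown cultures, so that it fell by 3.34 on the log2 scale (SE 0.14, adjusted p = 4.31e-09). Control replicate 2 stood apart in its ribosomal RNA, with 3.32% of its counts in Rn18s-rs5 against 0.129% to 0.199% in the other 3 libraries. The labelled cell type was checked against fibroblast markers, and all 11 were detected. They summed to 17379 and 16045 CPM in the controls and 11833 and 12005 CPM in the knockdown cultures. RNA was taken from whole cultures, so fewer cells of a kind and less RNA per cell cannot be told apart.

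**Figure D1:**
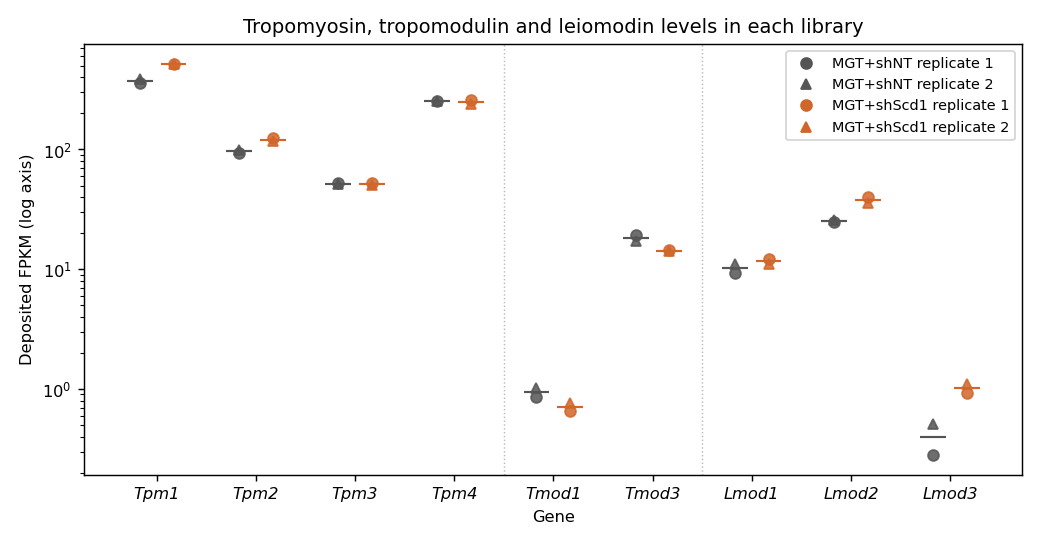
Deposited FPKM of each of the 9 genes (log axis) in each of the 4 libraries, grey for MGT+shNT and orange for MGT+shScd1, with a line at the mean of each group; dotted lines part tropomyosins, tropomodulins and leiomodins. Tpm1 was the most abundant in every library and rose further, from a mean of 372 to 519 FPKM, while Lmod3 and Tmod1 lay near or below 1 FPKM. FPKM carry no correction for composition, and the tested rise of Tpm1 was 0.38 on the log2 scale.

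Levels were compared between genes on the per-length scale of the deposited FPKM, which divides counts by exonic length and by the library total. It carries no correction for composition, so changes in FPKM differ from the tested fold changes. In the controls the order was Tpm1 (372 FPKM), Tpm4 (256), Tpm2 (96.2), Tpm3 (51.7), Lmod2 (25.4), Tmod3 (18.2), Lmod1 (10.2), Tmod1 (0.94) and Lmod3 (0.395), as means of the 2 libraries. In the knockdown cultures the first 7 kept that order, and Lmod3 (1.02 FPKM) stood above Tmod1 (0.705 FPKM). The library values of neighbours in this order did not overlap in either group. The order therefore held in each library, apart from the exchange of the last pair between the groups. Like the family shares given below, it rests on exonic length, which was 2909 bases for Tpm2 and 6085 for Tpm3. In raw counts of the controls Tpm3 was above Tpm2, with 6655 and 4706 against 5656 and 4376. In the knockdown cultures Tpm3 was below, with 6070 and 5745 against 6885 and 6391. Gene levels sum all isoforms, and the annotation (GENCODE M21) lists 21 transcripts for Tpm1, 16 for Tpm3, 6 for Tpm2 and 2 for Tpm4, so muscle and non-muscle isoforms of 1 gene were not separated.

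Tpm1 (ENSMUSG00000032366, minus strand of chromosome 9, 67022590 to 67049406 in GRCm38) encodes alpha-tropomyosin, the main tropomyosin of heart muscle. It had 48484 and 37991 counts in the control libraries and 64592 and 62579 in the knockdown libraries, or 2351 and 2658 CPM against 3272 and 3248 CPM. Both knockdown libraries were above both control libraries, and they lay close together. Tpm1 rose from 2504 ± 217 to 3260 ± 16.9 CPM (SD, n = 2 each), which is 0.38 on the log2 scale (SE 0.07, adjusted p = 0.000809). The rise ranged from 0.30 to 0.47 on the log2 scale with each library left out in turn and passed the test each time.

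Tpm2 (ENSMUSG00000028464, minus strand of chromosome 4, 43514711 to 43523765) encodes beta-tropomyosin, found in skeletal and smooth muscle and at lower levels in other cells. Its values were 274 and 306 CPM in the controls and 349 and 332 CPM in the knockdown cultures. The groups did not overlap, and the rise was the smallest of the 4 called. The log2 fold change was 0.23 (SE 0.07, adjusted p = 0.0177), and the call was sensitive to single libraries. It was lost without control replicate 1 (0.16, adjusted p = 0.05003), without knockdown replicate 1 (0.19, adjusted p = 0.217) and without knockdown replicate 2 (0.27, adjusted p = 0.0697), and it held without control replicate 2 (0.31, adjusted p = 1.79e-05).

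Tpm4 and Tpm3 did not pass. Tpm4 (ENSMUSG00000031799, plus strand of chromosome 8, 72134975 to 72153142), whose short isoform binds cytoskeletal actin, had 1104 and 1158 CPM in the controls and 1072 and 997 CPM in the knockdown cultures. The knockdown libraries were the lower pair, at -0.13 on the log2 scale (SE 0.06, adjusted p = 0.144), and without control replicate 1 the value was -0.15 at an adjusted p of 0.0268. Tpm3 (ENSMUSG00000027940, plus strand of chromosome 3, 90072649 to 90100902), which makes the slow-muscle tropomyosin as well as cytoskeletal forms, had 323 and 329 CPM in the controls and 307 and 298 CPM in the knockdown cultures. Its log2 fold change was -0.11 (SE 0.06, adjusted p = 0.188). On the FPKM scale, which carries no correction for composition, the groups overlapped for both genes. Tpm3 reads are uncertain, because 10.3% of the 150-base windows of its transcripts also occur in the retrogene Tpm3-rs7. That gene had 2529 and 1719 counts in the controls and 2317 and 2168 in the knockdown cultures, with a log2 fold change of -0.08 (adjusted p = 0.358). Tpm4 shares 5.11% of its windows with Gm7809, which had 26 to 45 counts per library, and Tpm1 and Tpm2 share 0.

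Tpm1 took a larger part of the tropomyosin pool in both knockdown libraries. Tpm1 made up 47.2% and 48.8% of the summed tropomyosin FPKM in the control libraries and 54.5% and 55.8% in the knockdown libraries. Its mean share thus went from 48.0% ± 1.13 to 55.2% ± 0.94 (SD, n = 2 each). The Tpm4 share was lower, with 33.7% and 32.3% in the controls and 27.1% and 26.0% in the knockdown cultures. Shares of 1 pool are bound together, so a larger part for Tpm1 leaves less for the others. The FPKM of Tpm4 itself overlapped between the groups, with 255 and 256 against 259 and 241. Tpm2 held 12.3% and 12.5% against 12.9% and 12.7%, and Tpm3 6.90% and 6.44% against 5.46% and 5.46%. The summed tropomyosin level was 759 and 794 FPKM in the controls and 957 and 926 FPKM in the knockdown cultures. The ratio of Tpm1 to Tpm4 was 1.40 and 1.51 against 2.01 and 2.15. With 2 libraries against 2, the smallest two-sided p of an exact permutation test is 0.333, so these shares are described and not tested.

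**Figure D2:**
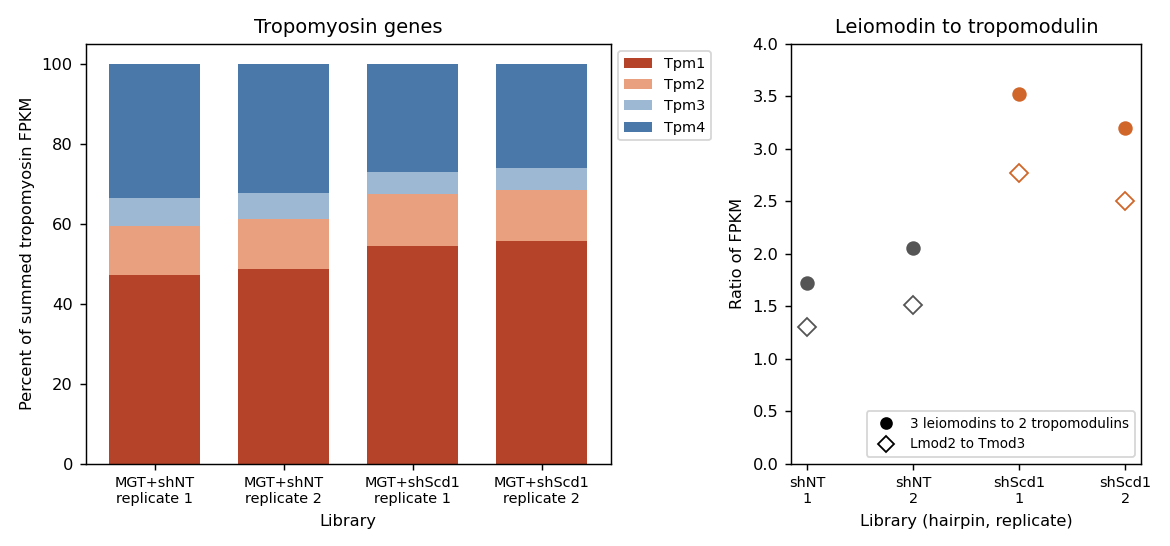
Left, each tropomyosin gene as a percent of the summed deposited FPKM of the 4 genes in each library; right, the ratio of the 3 leiomodins to the 2 tropomodulins (filled) and of Lmod2 to Tmod3 (open), grey for MGT+shNT and orange for MGT+shScd1. Tpm1 took 47.2% to 48.8% of the pool in MGT+shNT and 54.5% to 55.8% in MGT+shScd1, and both ratios were higher in both MGT+shScd1 libraries.

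Of the pointed-end caps, Tmod3 fell and Tmod1 did not pass. Tmod3 (ENSMUSG00000058587, minus strand of chromosome 9, 75497707 to 75559657) encodes the tropomodulin of most non-muscle cells. It had 216 and 203 CPM in the controls and 155 and 154 CPM in the knockdown cultures. The knockdown libraries were alike and both below the control libraries. The control mean was 210 ± 9.16 CPM and the knockdown mean 155 ± 1.07 CPM (SD, n = 2 each). Tmod3 fell by 0.44 on the log2 scale (SE 0.06, adjusted p = 9.09e-05). The fall was between -0.49 and -0.39 with each library left out in turn and passed the test each time, whereas limma on log2(FPKM + 1) gave -0.32 (adjusted p = 0.0585) and on log2(FPKM + 0.1) -0.34 (adjusted p = 0.0568).

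Tmod1 (ENSMUSG00000028328, plus strand of chromosome 4, 46038935 to 46116032) encodes the tropomodulin of heart muscle and red blood cells, and it was scarce. Its counts were 71 and 61 in the controls and 49 and 56 in the knockdown cultures, or 3.44 and 4.27 CPM against 2.48 and 2.91 CPM. The knockdown libraries were the lower pair, but at these counts the log2 fold change of -0.51 (SE 0.26) did not pass (adjusted p = 0.169). Tmod1 overlaps Tstd2 on the opposite strand, and 29.2% of its 150-base windows lie in that gene too. Tstd2 had 358 to 581 counts per library, and without a stated strand setting the reads of the 2 genes cannot be told apart. Red cell markers were near 0 in every library, with a sum of 5.81 to 6.93 CPM over 10 of 11 listed genes that are in the table, and Hba-a2, Hbb-bt and Epb42 had 0 counts. The other 2 tropomodulin genes, singled out with their values known, were as scarce, and neither passed with all libraries. The neuronal Tmod2 had 62 and 75 counts in the controls and 103 and 95 in the knockdown cultures (log2 fold change 0.33, adjusted p = 0.368), and the skeletal Tmod4 had 24 to 33 counts per library (-0.21, adjusted p = 0.698). Tmod2 was at 0.75 (adjusted p = 0.0146) without control replicate 2 and at -0.039 (adjusted p = 0.934) without control replicate 1.

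The leiomodins were led by the cardiac member. Lmod2 (ENSMUSG00000029683, plus strand of chromosome 6, 24597762 to 24605414), which elongates cardiac thin filaments, had 49.8 and 54.4 CPM in the controls and 76.3 and 68.4 CPM in the knockdown cultures. The groups were well apart, and the mean rose from 52.1 ± 3.20 to 72.3 ± 5.61 CPM (SD, n = 2 each). The log2 fold change was 0.48 (SE 0.08, adjusted p = 0.00047), from 0.39 to 0.55 with each library left out in turn, and the call held under each of the 12 alternatives.

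Lmod3 (ENSMUSG00000044086, minus strand of chromosome 6, 97238534 to 97252759), the leiomodin of skeletal muscle and a gene of nemaline myopathy, had few reads. It had 13 and 17 counts in the controls and 39 and 46 in the knockdown cultures, or 0.63 and 1.19 CPM against 1.98 and 2.39 CPM. Both knockdown libraries were higher, and the rise of 1.30 on the log2 scale (SE 0.40, adjusted p = 0.0268) was the largest of the 9 and the least certain. The call was lost without control replicate 1 (0.88, adjusted p = 0.133), without knockdown replicate 1 (1.42, adjusted p = 0.150) and without knockdown replicate 2 (1.15, adjusted p = 0.252), by DESeq2 at 1.29 (adjusted p = 0.0942) and with limma on log2(FPKM + 1) (0.53, adjusted p = 0.086) and log2(FPKM + 0.1) (1.21, adjusted p = 0.095). Without control replicate 2 it was 1.78 (adjusted p = 0.00103). Of 14 skeletal muscle markers, 7 were tested, of which 5 rose, Mylpf (2.37) and Myh2 (1.48) among them, and 0 fell. The 14 summed to 81.0 and 84.8 CPM in the controls and 125 and 144 CPM in the knockdown cultures. Myod1, a regulator of that lineage, had 0 counts in all libraries. The part of other skeletal muscle genes in the Lmod3 value was not tested.

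Lmod1 (ENSMUSG00000048096, plus strand of chromosome 1, 135324807 to 135368065), the leiomodin of smooth muscle, had 37.4 and 46.4 CPM in the controls and 46.6 and 42.7 CPM in the knockdown cultures. The groups overlapped in CPM, though not in FPKM (9.35 and 11.1 against 12.2 and 11.2), and the log2 fold change of 0.10 (SE 0.10) did not pass (adjusted p = 0.497). Its direction depended on the control library, being 0.25 (adjusted p = 0.0331) without control replicate 2 and -0.047 (adjusted p = 0.778) without control replicate 1. The 9 smooth muscle markers likewise overlapped between the groups in their sum, with 2725 and 3443 CPM in the controls and 3186 and 3005 CPM in the knockdown cultures. Of these 9, Cnn1 rose (0.78), Myh11 (-0.44), Itga8 (-0.39) and Smtn (-0.35) fell, and 5 did not pass. Without control replicate 2, 4 of them rose, and without knockdown replicate 1, 1 fell, Myh11 (adjusted p = 0.0744) and Smtn (adjusted p = 0.052) no longer passing. With limma on log2(FPKM + 1), Myh11 (adjusted p = 0.119), Itga8 (adjusted p = 0.0806) and Smtn (adjusted p = 0.0824) did not pass.

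At the pointed end, the FPKM of the 3 leiomodins exceeded that of Tmod1 and Tmod3 in every library, and more so with Scd1 knocked down. Tmod2 and Tmod4 are not in these sums. The order between the families rests on exonic length, which was 11151 bases for Tmod3 and 1976 for Lmod2. In raw counts Tmod3 was above Lmod2, with 4464 and 2908 against 1028 and 777 in the controls. In the knockdown cultures the counts were 3069 and 2966 against 1506 and 1317. Per length, the summed leiomodins were 34.5 and 37.6 FPKM in the controls and 53.0 and 47.9 FPKM in the knockdown cultures, and the summed tropomodulins were 20.0 and 18.3 FPKM against 15.1 and 15 FPKM. The ratio of the first to the second was 1.72 and 2.06 in the controls and 3.52 and 3.20 in the knockdown cultures. That of Lmod2 to Tmod3 alone was 1.30 and 1.51 against 2.77 and 2.51. Lmod2 made up 72.1% and 69.1% of the leiomodin FPKM in the controls and 75.3% and 74.4% in the knockdown cultures. The groups did not overlap in any of these FPKM sums, ratios and shares, which were not tested, for the reason given for the tropomyosin shares.

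**Figure D3:**
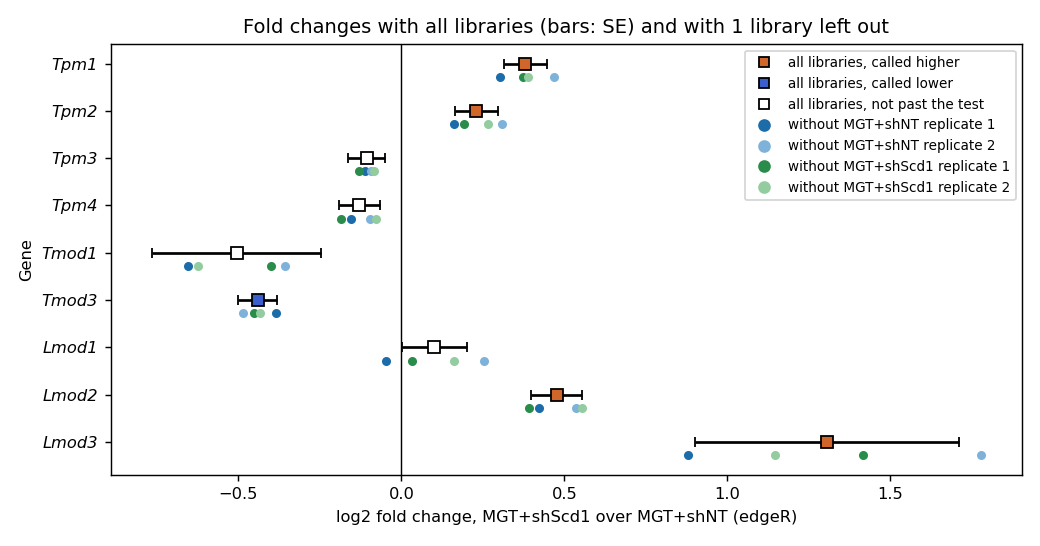
Log2 fold change of each gene, MGT+shScd1 over MGT+shNT, with all libraries (squares, bars are 1 SE; orange called higher, blue called lower, white not past the test) and with each library left out (dots under each square). Tpm1, Lmod2 and Tmod3 kept their direction and size, Lmod3 ranged from 0.88 to 1.78, and Lmod1 lay on either side of 0.

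The start regions of Tpm1, Lmod2 and Lmod1 are shown because the first 2 rose, the last did not pass, and all 3 hold near-matches to the CArG box, the site of serum response factor (SRF), a main activator of actin cytoskeleton and muscle genes. The sequences are from RefSeq (GRCm38.p6), each from 250 bases before to 50 bases after an annotated start, 5′ to 3′ on the strand of the gene, with motif matches in capitals.
Tpm1, chr9:67049164-67049463, minus strand: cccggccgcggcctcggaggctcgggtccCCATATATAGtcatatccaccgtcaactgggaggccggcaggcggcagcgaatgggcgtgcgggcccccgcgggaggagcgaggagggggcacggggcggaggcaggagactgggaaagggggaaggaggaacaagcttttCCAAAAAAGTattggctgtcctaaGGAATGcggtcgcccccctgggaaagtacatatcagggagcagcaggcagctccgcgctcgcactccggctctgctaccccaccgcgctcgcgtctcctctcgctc
Lmod2, chr6:24597521-24597820, plus strand: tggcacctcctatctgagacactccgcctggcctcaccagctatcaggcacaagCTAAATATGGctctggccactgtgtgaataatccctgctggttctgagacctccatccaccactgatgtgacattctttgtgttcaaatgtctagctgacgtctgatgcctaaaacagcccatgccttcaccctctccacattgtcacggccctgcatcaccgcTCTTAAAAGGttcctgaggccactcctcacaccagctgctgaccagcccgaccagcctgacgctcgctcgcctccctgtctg
Lmod1, chr1:135324563-135324862, plus strand: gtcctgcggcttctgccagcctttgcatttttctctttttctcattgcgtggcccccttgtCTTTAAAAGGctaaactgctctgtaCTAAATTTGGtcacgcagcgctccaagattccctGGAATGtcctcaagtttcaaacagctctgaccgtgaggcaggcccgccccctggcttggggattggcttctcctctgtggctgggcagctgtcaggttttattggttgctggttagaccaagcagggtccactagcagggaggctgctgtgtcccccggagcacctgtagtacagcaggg

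The table of start regions held 8 windows for 7 of the 9 genes. A complete CArG box was in 0 of the 8 windows and in 1.63% of 32851 start regions. A CArG box with 1 of its fixed C or G bases changed, a motif added after the letters were seen, was in 4 windows (Tpm1, Tpm3, Lmod1 and Lmod2) and in 12.6% of all start regions. Tpm1 had such matches at 221 to 212 and 80 to 71 bases before the start, Lmod2 at 196 to 187 and 32 to 23, and Lmod1 at 189 to 180 and 164 to 155. The M-CAT element of TEAD factors (CATTCC) was in 3 windows (Tpm1, Lmod1 and Tmod1) and 14.7% of all start regions, and the GATA site searched (AGATAA) in 1 window, of Tpm3, and 11.2%. The MEF2 site (3.19% of all start regions), the T-box site searched (AGGTGT, 13.7%) and the TATA box (TATAAA, coding strand, 8.32%) were in 0 of the 8. The other motifs were searched on both strands, and no matches overlapped. The genes with CArG near-matches include Tpm1 and Lmod2, which rose, and Lmod1 and Tpm3, which did not pass. Tpm2, which rose, had no match in its window. Any effect of these sites on the levels was not tested.

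Srf, the gene of SRF, had 1323 and 1089 counts in the controls and 1344 and 1402 in the knockdown cultures, a log2 fold change of 0.01 (adjusted p = 0.939), a value looked up after the results were known, and from -0.10 to 0.13 with 1 library left out. The list of SRF and its cofactors also holds MEF2 genes and Tead1, which bind their own sites. Of its 10 genes, 1 rose, 5 fell and 4 did not pass (median -0.16). Fhl1, a LIM protein of muscle, rose by 0.50, and the MEF2 genes Mef2d (-0.60), Mef2a (-0.46) and Mef2c (-0.40) and the TEAD factor Tead1 (-0.37) fell. The Mef2c counts include any introduced copies that share its sequence, and its call was lost without knockdown replicate 1 (-0.28, adjusted p = 0.105), where 3 of the list fell. With limma on log2(FPKM + 1), 2 of the list fell, and Mef2c (adjusted p = 0.208) and Tead1 (adjusted p = 0.079) did not pass. Mef2c did not pass with DESeq2 (adjusted p = 0.06).

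The actins and troponins, the partners of tropomyosin in the thin filament, moved unevenly. Of 6 actin genes, 1 rose, 1 fell and 4 did not pass (median 0.02). Over all genes tested, 13.1% were called higher and 16.3% lower, so the actin calls were near the background. Cardiac actin (Actc1) had 292 and 384 FPKM in the controls and 809 and 749 FPKM in the knockdown cultures, a rise of 1.10 (SE 0.11, adjusted p = 7.46e-06). Cytoplasmic beta-actin (Actb) fell by 0.21 on the log2 scale (adjusted p = 0.0189), a call lost without knockdown replicate 1 (adjusted p = 0.138) or 2 (adjusted p = 0.169), with upper-quartile factors (adjusted p = 0.068), with replicate number as a blocking term (adjusted p = 0.051) and with limma on log2(FPKM + 1) (adjusted p = 0.401). Of 8 troponin genes, 6 were tested, of which 4 rose, 1 fell and 1 did not pass (median 1.61, over tested genes). The calcium-binding subunit Tnnc1 (2.44), the slow skeletal Tnnt1 (2.36) and Tnni1 (1.87) and cardiac Tnni3 (1.35) rose. Cardiac troponin T (Tnnt2) fell from 381 and 407 FPKM to 338 and 319 FPKM (-0.36, adjusted p = 0.00114), and did not pass with limma on log2(FPKM + 1) (adjusted p = 0.09). Without the filter on low counts all 8 troponins were fitted, with a median of 0.63. The numbers of troponins called were the same with each library left out, while 1 or 2 actins rose and 3, 1, 0 and 0 fell without control replicates 1 and 2 and knockdown replicates 1 and 2.

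Among 28 genes that act on filament ends and length, 25 were tested, of which 10 rose, 1 fell and 14 did not pass (median 0.10, over tested genes). The actin-binding Xin repeat proteins Xirp2 (1.94, SE 0.20) and Xirp1 (1.15, SE 0.12) and the profilin Pfn2 (0.51) rose. Nrap, a nebulin-related anchor of growing thin filaments, rose by 0.67 (adjusted p = 0.0478), a call lost without control replicate 1 (0.26, adjusted p = 0.37) or either knockdown library (adjusted p = 0.237 and 0.209), with RLE factors (adjusted p = 0.0523), with DESeq2 (adjusted p = 0.117) and with limma on log2(FPKM + 1) (adjusted p = 0.191). The cyclase-associated protein Cap1 fell by 0.19 on the log2 scale (adjusted p = 0.0242), and that call was lost without knockdown replicate 1 (adjusted p = 0.166) or 2 (adjusted p = 0.195), with upper-quartile factors (adjusted p = 0.0936) and with limma on log2(FPKM + 1) (adjusted p = 0.281). Nebulin (Neb, 0.04, adjusted p = 0.924), its cardiac relative Nebl (-0.08, adjusted p = 0.699) and the formin Fhod3 (0.08, adjusted p = 0.391), singled out once their values were known, did not pass with all libraries. Without control replicate 2, Fhod3 passed at 0.17 (adjusted p = 0.0397), and without control replicate 1 it was 0.0072 (adjusted p = 0.956). Neb ranged from -0.19 to 0.27 with 1 library left out and did not pass. The list had 14 rises without control replicate 2 and 9, 7 and 7 without control replicate 1 and knockdown replicates 1 and 2, with 2 falls without control replicate 1 and 0 without either knockdown library. Klhl40, which stabilises Lmod3 protein (2 and 3 counts in the controls, 12 and 6 in the knockdown cultures) and its relative Klhl41 (2 and 2, 20 and 9), likewise singled out with values known, were below the filter.

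**Figure D4:**
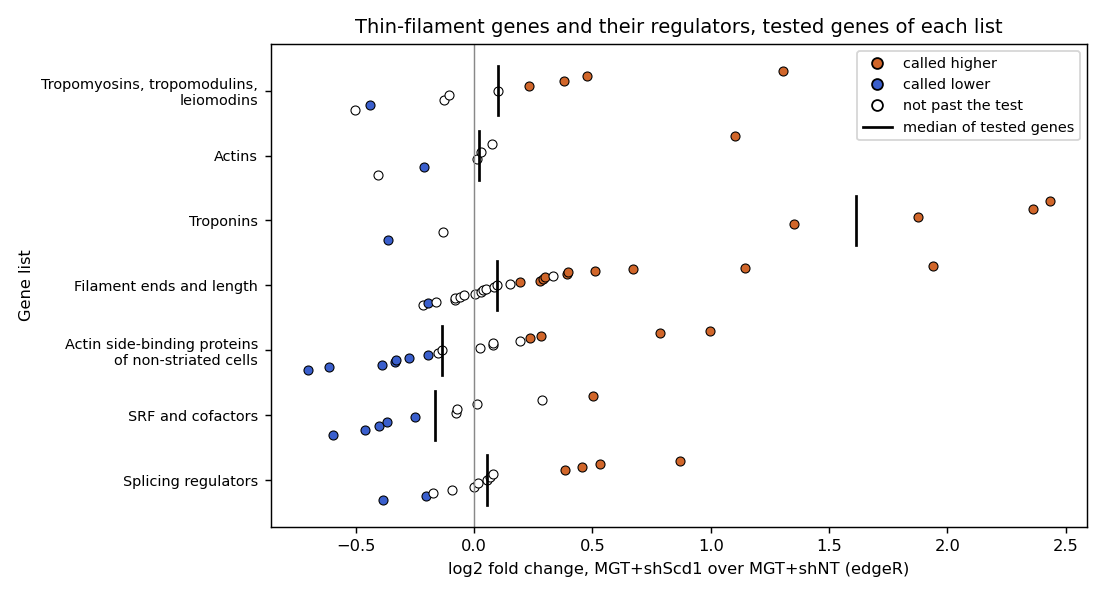
Log2 fold changes, MGT+shScd1 over MGT+shNT, of the tested genes of each list (1 dot a gene; orange called higher, blue called lower, white not past the test), with a black line at the median. The troponin median (1.61) lay farthest to the right. The lists of side-binding proteins (-0.13) and of SRF and cofactors, which also holds MEF2 genes and Tead1 (-0.16), had medians below 0.

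Proteins listed as sharing actin with tropomyosin in non-striated cells were called in both directions. The list also holds Flnc, a filamin of striated muscle. All 17 were tested, with 4 called higher, 7 lower and 6 short of the threshold (median -0.13). Caldesmon (Cald1), which binds tropomyosin along smooth muscle and cytoskeletal filaments, fell from 170 and 167 FPKM to 110 and 111 FPKM (-0.70, SE 0.06, adjusted p = 1.61e-06). Myosin light chain kinase (Mylk, -0.61) and vinculin (Vcl, -0.33) fell as well, while the non-muscle myosin Myh10 (0.99), calponin Cnn1 (0.78), Actn1 (0.28) and Flnc (0.23) rose. Without knockdown replicate 1, Vcl (adjusted p = 0.0807) and Actn1 (adjusted p = 0.0868) did not pass, and without knockdown replicate 2, Actn1 (adjusted p = 0.0668) and Flnc (adjusted p = 0.292) did not. With limma on log2(FPKM + 1), where 3 rose and 3 fell, Vcl (adjusted p = 0.106) and Flnc (adjusted p = 0.0825) did not pass. Rises numbered 4 and 6 without control replicates 1 and 2 and 3 and 2 without knockdown replicates 1 and 2.

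Tropomyosin transcripts are spliced by muscle and non-muscle factors, and 13 of 15 listed regulators were tested. The calls were 4 higher and 2 lower, with 7 short of the threshold (median 0.06). Rbm24, a splicing factor of heart and skeletal muscle, rose by 0.53 (7.33 and 7.67 FPKM to 11.8 and 11.4 FPKM), Rbm20, the regulator of titin splicing, by 0.46, Ptbp2 by 0.38 and Rbfox1 by 0.87. Mbnl2 (-0.38) and Mbnl1 (-0.20) fell. Ptbp1, a repressor of muscle exons that was picked out with its values known, stood at a log2 fold change of -0.00 (adjusted p = 0.992). The calls on Rbfox1 (adjusted p = 0.131 and 0.116) and Mbnl1 (adjusted p = 0.154 and 0.114) were lost without knockdown replicates 1 and 2, and that on Ptbp2 without replicate 2 (adjusted p = 0.0586). Rbfox1 did not pass with DESeq2 (adjusted p = 0.0605), nor Mbnl1 with upper-quartile factors (adjusted p = 0.062). With limma on log2(FPKM + 1), Rbfox1 (adjusted p = 0.101), Mbnl1 (adjusted p = 0.311) and Mbnl2 (adjusted p = 0.104) did not pass, and 0 of the list fell. Rises numbered 4, 4, 3 and 2 and falls 2, 4, 1 and 1 without control replicates 1 and 2 and knockdown replicates 1 and 2.

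Markers of the cells in the culture moved beside these genes. Over all genes tested, 13.1% were called higher and 16.3% lower. Of 11 fibroblast markers, 1 rose, 8 fell and 2 did not pass. The 14 macrophage markers summed to 1056 and 966 CPM in the controls and 233 and 229 CPM in the knockdown cultures, and 11 fell, 1 rose and 2 did not pass. Falls numbered 9, 12, 8 and 10 without control replicates 1 and 2 and knockdown replicates 1 and 2, and rises 1, 0, 0 and 0. The 11 cardiomyocyte markers went both ways, with 4 higher, 4 lower and 3 not past the test, and summed to 4787 and 5429 CPM against 4738 and 4857 CPM. Without knockdown replicate 2, 3 were higher and 2 lower. Of 8 endothelial markers tested, 2 fell and 0 rose, and of 9 epicardial markers, 2 rose and 4 fell. Without control replicate 1, 1 endothelial marker rose and the median of that list was 0.14 against -0.20 with all libraries, and without control replicate 2 the median was -0.73. Without either knockdown library 1 endothelial marker fell. Epicardial calls were 1 higher and 3 lower without control replicate 1, 1 and 2 without knockdown replicate 1, and 1 and 4 without knockdown replicate 2. Their part in the tropomyosin, tropomodulin and leiomodin values was not tested.

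The genes with library values most like those of Tmod3 were Sgpp1, Rftn2 and Ttpal, at Euclidean distances of 0.0147, 0.0164 and 0.0169 in centred log2 CPM over the 4 libraries. Those most like Lmod3 were Gm22572, Klrg2 and Trp53cor1, at 0.162, 0.178 and 0.196. The distances rest on 4 libraries only.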

How the data were processed

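RNA-seq libraries of 4 samples (2 per group) were analysed from 1 table of the whole series. Per the file headers and values, the authors deposited raw read counts per gene, whole numbers neither normalised nor pooled, and FPKM, which equalled count over exonic length and total count for 100.0% of values (tolerance 0.005). Per the submitters' processing notes, the genome build was mm10 and the tools included SAMtools, featureCounts, Trimmomatic 0.36 and Subread 1.5.1. How strand and reads with several matches were treated, and which annotation release was used, is not given in the sources used here; the protocol names a stranded kit. The labels name polyA RNA while their protocol describes ribosomal RNA depletion. The deposited coordinates were not used, and gene positions are GRCm38 from GENCODE M21.

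The table was fitted whole: genes kept by filterByExpr (minimum count 10, minimum total 15; 16234 genes), TMM factors of 0.989, 0.946, 1.03 and 1.03, and edgeR 4.0.16 (R 4.3.3) quasi-likelihood tests with group as the only term. The SE is the unshrunken log2 coefficient over the root of F. CPM are counts scaled to TMM-adjusted totals. The fit was tested on simulated data. Alternatives used limma 3.58.1 and DESeq2 1.42.0, with limma on log2(FPKM + 1) and log2(FPKM + 0.1) for genes with a mean of at least 0.1 FPKM, where folds of low genes are understated. The replicates of a group did not agree within sampling noise (chi-square per degree of freedom 28.5 in the controls and 2.30 in the knockdown) and all were counted. The control value includes Rn18s-rs5, at 0.199% and 3.32% of the counts of replicates 1 and 2, so it overstates the disagreement of other genes. Nothing in the labels says the replicates came from separate cultures. The p-values therefore cover only the spread among these libraries, possibly a technical one.

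The members and lists were chosen with earlier results of these data known. Named from the lists were the called genes with the largest fold change, up to 4 in each direction, where the group with more averaged 1 FPKM or above; 1 gene that this rule names is not reported here.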

Additional observations from a re-analysis of the deposited data

How the results depend on the processing

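Of 108 member values over 12 alternatives each, 94 kept their direction and their side of the threshold. Tpm1, Lmod2, Tpm3 and Tmod1 did so under all 12. Lmod3 lost its call under 6 alternatives, Tpm2 under 3 and Tmod3 under 2, Tpm4 gained a call under 1, and Lmod1 gained a call without MGT+shNT replicate 2 and turned direction without MGT+shNT replicate 1 (-0.047 to 0.25 with 1 library left out). The cause was not tested. With 1 library left out, 2 to 5 members were called higher and 1 to 2 lower, against 4 and 1; a group of 1 is then assumed to vary like the other group. Limma on log2(FPKM + 1) and log2(FPKM + 0.1) called 0 members lower at an adjusted p below 0.05, 1 at an unadjusted p below 0.05, and edgeR, DESeq2 and limma-voom each called 1 lower. The 2 FPKM scales carry no correction for composition. Their median log2 fold changes over all genes fitted were 0.048 and 0.081, against 0.0001 in the main fit. Of all calls, 60.53% were higher on log2(FPKM + 1) and 44.55% in the main fit. Falls are thus harder to call on the FPKM scales than in the main fit. Over all genes, 2122 were called higher and 2641 lower. The higher calls numbered 1365 with DESeq2, 1242 on log2(FPKM + 1), 1305 on log2(FPKM + 0.1) and 860 to 2386 with 1 library left out. The lower calls numbered 810, 857 and 1357 to 2945 on the 2 FPKM scales and with 1 library left out. Of 77 pathway genes tested, 24 rose and 17 fell; 5 and 5 fell on the FPKM scales, and 17 to 31 rose and 10 to 21 fell with 1 library left out. With the replicate number as a block, 4 members were called higher and 1 lower, and 2253 and 2737 genes overall. The numbers are not known to pair the samples (correlation of deviations 0.0077 over 16234 genes). With the block, 25 pathway genes rose and 16 fell. Depth limits Lmod3 (13 to 46 counts) and Tmod1 (49 to 71).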
